A study of Mus musculus with 4 samples.

Results

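ISG15 is a ubiquitin-like protein that interferons induce, and 5 genes of its machinery were examined: the modifier gene Isg15, the conjugating enzyme gene Ube2l6, the ligase genes Herc6 and Trim25, and Usp18, which encodes the protease that takes ISG15 off again. The members were chosen by gene symbol in the platform annotation, and 4 of the 5 had a probe, with 6 probes among the 25697 on each array. Usp18 had 3 probes, Isg15, Ube2l6 and Trim25 had 1 each, and Herc6, with no probe under its symbol, gene ID or synonyms, was not analysed here.

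RNA came from intestinal epithelial cells of C57BL/6 mice and was measured on 4 single-colour Illumina bead arrays, 2 per group. All mice carried Csnk1a1 with lox sites and a tamoxifen-activated Cre recombinase driven by the villin promoter (Vil1-Cre-ERT2), which removes Csnk1a1, the gene of casein kinase 1 alpha, from the gut epithelium. Mice received tamoxifen (120 mg/kg) by injection on 2 days in a row, and cells were collected on day 5 after the second dose. The groups differed in Ifnar1, a chain of the type I interferon receptor, which was intact (Ifnar1+/+) or deleted (Ifnar1-/-). The titles call the Ifnar1+/+ arrays wild type, but they carry the Csnk1a1 deletion as well, and no group with intact Csnk1a1 was compared. The Ifnar1 deletion came from a cross with Ifnar1-/- mice, so immune and stromal cells left in a preparation would lack the receptor too, whereas Csnk1a1 was removed only where villin-driven Cre acts. The labels give neither the age of the mice nor whether separate animals stand behind the 2 samples of each group, so p-values reflect how far these samples vary, possibly for technical reasons only. The protocol writes Ifnar1+/+ for both crosses, so groups follow the titles and genotype labels. The tissue label reads colon, while the protocol takes cells from the small intestine.

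In the textbook pathway the enzyme UBA7 activates ISG15, UBE2L6 receives it, and a ligase joins it to lysines of target proteins, many of them newly made. HERC5 is the main ligase in human cells and HERC6 does this work in mice. TRIM25 is better known for adding ubiquitin to the RNA sensor RIG-I and can also act as a ligase for ISG15. USP18 reverses the reaction and, apart from its protease activity, binds the receptor chain IFNAR2 and holds down signalling from it. Most of these genes are themselves switched on by type I interferon through a complex that includes STAT2 and IRF9 and binds interferon-stimulated response elements in promoters.

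The promoters of Isg15 and Ube2l6 are shown for members with a larger and a smaller difference between genotypes, so the pair was picked by its values. Each line gives the 250 bases before the annotated start, 5′ to 3′ on the gene's own strand, from RefSeq on build GRCm38.p6. Capitals mark matches to the core of the response element, searched as GAAA, any 2 bases and GAAA again, on both strands. Isg15 is on the minus strand at chr4:156200819-156201068, and Ube2l6 on the plus strand at chr2:84798578-84798827.
Isg15: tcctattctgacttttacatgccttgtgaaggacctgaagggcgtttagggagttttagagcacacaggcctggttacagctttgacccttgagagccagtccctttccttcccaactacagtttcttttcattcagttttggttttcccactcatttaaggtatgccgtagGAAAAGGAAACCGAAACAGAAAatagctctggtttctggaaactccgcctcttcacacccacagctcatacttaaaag
Ube2l6: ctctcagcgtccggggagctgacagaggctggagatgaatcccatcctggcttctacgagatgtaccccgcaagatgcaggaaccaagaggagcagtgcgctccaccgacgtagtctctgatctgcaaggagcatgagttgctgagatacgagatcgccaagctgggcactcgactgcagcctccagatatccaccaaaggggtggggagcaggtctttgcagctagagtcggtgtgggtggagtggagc
The Isg15 window held 3 matches, GAAAAGGAAA, GAAACCGAAA and GAAACAGAAA, each overlapping the next, which together ran from 78 to 57 bases before the start on the sense strand. The windows of Ube2l6, Trim25 and Herc6 held 0 matches on either strand, and Usp18 had no entry in the table. Of 32851 windows of the same length, 2.98% held the core on one strand or the other. The palindromic interferon-gamma element TTCNNNGAA was found in 0 of the 4 windows of members and in 7.02% of all windows. A match describes letters only and is not evidence of a bound site. Whether matches go with the size of a difference was not tested.

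All 4 arrays detected between 11234 and 11954 probes, a probe counting as detected, or above background, at a detection p under 0.05. Levels below are normalized log2 intensities after background correction, and differences are Ifnar1-/- minus Ifnar1+/+. Precision is limited by the number of arrays. The Ifnar1 probe was not above background on any array, with raw signals of 119.3 to 135.0, and neither was the Csnk1a1 probe, at 122.7 to 136.5, so the genotype labels could not be checked by either. Of the epithelial markers with a probe, 10 of 10 were detected on all 4 arrays, as were 6 of 9 small intestine genes and 2 of 6 colon genes. Summed linear levels of the 6 tested small intestine genes were 80586.8 to 93898.5 in Ifnar1+/+ and 87397.5 to 99948.9 in Ifnar1-/- samples. Those of the 3 tested colon genes were 321.1 to 456.7 and 413.8 to 657.7. Fabp2 and Slc10a2 of the first list and Aqp8, Hoxb13 and Hoxd10 of the second were not above background on any array. Of the tested epithelial markers 6 of 10 had a lower mean in Ifnar1-/- samples, with a median difference of -0.15, and of the tested small intestine genes 4 of 6, with a median of -0.73, and 0 of either passed by limma. Of all 8442 genes with a tested probe, 47% had a lower mean, the share beside which such counts below stand. Fabp6, an ileal bile acid carrier, differed by -1.72, and the epithelial genes Krt20 and Vil1 by -0.88 and -0.65. A higher mean was seen for 4 epithelial markers, with Krt18 the highest at 0.67. The same held for 2 small intestine genes, Lyz1 at 0.71 and Apoa4 at 0.69. The part of all these genes in the differences of the members was not tested. Ifnar1-/- arrays differed from each other by more than 1 log2 unit in 7.50% of 11884 tested probes, against 1.57% for the Ifnar1+/+ arrays. The arrays share 1 chip, and the position on it follows the group, so position and genotype cannot be told apart.

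The modifier Isg15 and its protease Usp18 had the largest differences among the members. After background correction their levels were about 4-fold and 3-fold lower in Ifnar1-/- samples. Without that correction the log2 differences were -0.99 for Isg15 and -1.15 for the brightest Usp18 probe. Their groups did not overlap, which held in the lower direction for 20.0% of the 11884 probes tested. Ube2l6 lay lower by less, and Trim25 was not above background anywhere. None of the members passed limma's test when p-values were adjusted over all 11884 probes tested. That test called 0 probes in the whole table (0.00%), with a smallest adjusted p of 0.42, while 623 lower (5.24%) and 490 higher probes (4.12%) had an unadjusted p under 0.05. An exact permutation test of 2 arrays against 2 cannot give less than p = 0.333, the value it gave for each of the 6 member probes.

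Isg15 encodes the modifier itself, which is made as a precursor and acts both when joined to proteins and as a free, secreted molecule. Its raw signals were 268.8 and 360.2 in Ifnar1+/+ samples and 183.0 and 167.8 in Ifnar1-/- samples. The median probe of the same arrays lay at 145.3, 143.5, 157.8 and 151.3. Its normalized levels were 7.22 and 8.23 in Ifnar1+/+ and 5.74 and 5.59 in Ifnar1-/- samples. Ifnar1+/+ array 2 was the highest, and both Ifnar1-/- arrays lay close to the lowest signal that counted as above background, 5.23 to 5.37. The means were 7.72 ± 0.71 and 5.66 ± 0.10 (SD, n = 2 each), a difference of -2.06 ± 0.36 (SE) or 4.17-fold (95% interval 2.31 to 7.54), with an adjusted p = 0.42 by limma. The interval belongs to this 1 probe and does not allow for the number of probes tested. By size, this was the eighth lowest difference of all probes tested, rank 8 of 11884.

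**Figure D1:**
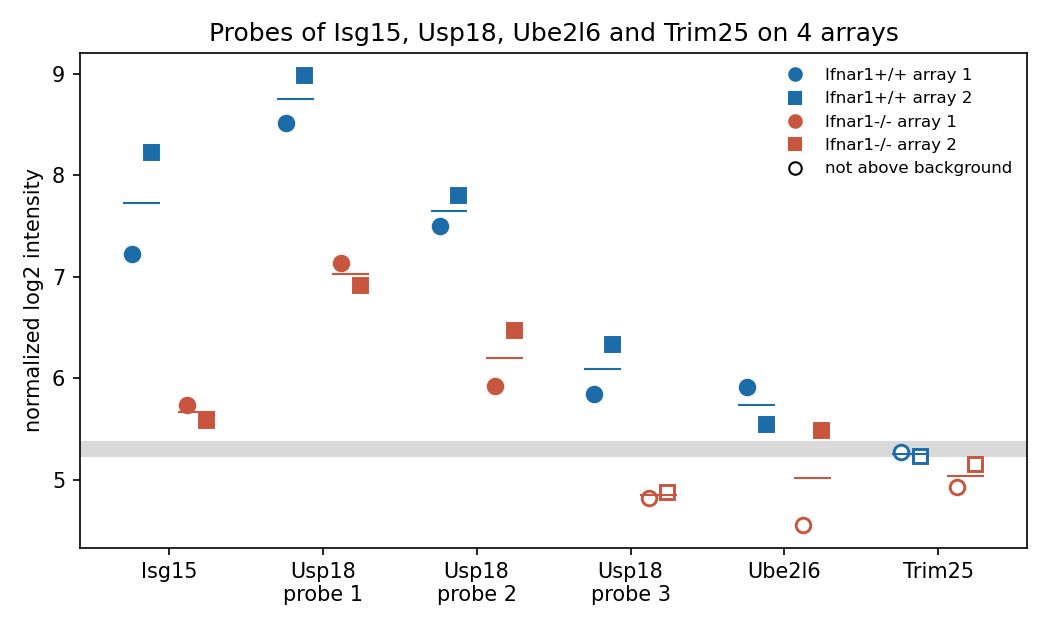
Normalized log2 intensity (vertical axis) of the 6 member probes on the 2 Ifnar1+/+ arrays (blue) and the 2 Ifnar1-/- arrays (red), with group means as short lines. Open symbols are not above background, and the grey band spans the lowest detected signal of each array, 5.23 to 5.37. Isg15 and the 3 Usp18 probes separate by genotype, Ube2l6 spreads on the Ifnar1-/- arrays, and Trim25 stays within or below the band.

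Usp18, the deconjugating protease, was measured by 3 probes to the same transcript, which are not independent of each other. The brightest probe, called probe 1 here, had levels of 8.52 and 8.98 in Ifnar1+/+ and 7.13 and 6.91 in Ifnar1-/- samples, with raw signals of 489.6 and 528.2 against 283.3 and 241.1. It was detected on all 4 arrays, and the spread within each group was small beside the gap between groups. The difference was -1.73 ± 0.26 (SE, n = 2 per group), or 3.31-fold (95% interval 2.14 to 5.12), with an adjusted p = 0.42 by limma. Its unadjusted p ranked 3 of 11884. Probe 2, also detected on every array, lay at 7.50 and 7.80 in Ifnar1+/+ and at 5.92 and 6.48 in Ifnar1-/- samples, a difference of -1.45 ± 0.28 (SE). Probe 3 lay at 5.84 and 6.34 in Ifnar1+/+ and at 4.82 and 4.88 in Ifnar1-/- samples. It was above background on both Ifnar1+/+ arrays and on neither Ifnar1-/- array, so a bound is given in place of a fold. With background correction it was at least 1.75-fold lower, with a limma adjusted p = 0.43. The bound does not hold without background correction, where the log2 difference was -0.41. Point differences of probe 3 given below rest on Ifnar1-/- levels that were not above background. Probe 3 entered the test through the Ifnar1+/+ arrays alone and so had to differ. Probes 1 and 2 were both lower, and their 95% intervals on the log2 scale, -2.36 to -1.10 and -2.12 to -0.78, overlapped each other and that of Isg15, -2.92 to -1.21.

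Ube2l6 encodes the conjugating enzyme, which carries activated ISG15 to the ligases. Its levels were 5.91 and 5.55 in Ifnar1+/+ samples and 4.55 and 5.48 in Ifnar1-/- samples. The raw signals, 176.3 and 154.8 against 131.4 and 164.2, were close to the array medians. The groups did not overlap after normalization, but Ifnar1-/- array 2 lay only just under Ifnar1+/+ array 2, and its raw signal was the higher of the pair. With median scaling in place of quantile normalization the groups of Ube2l6 overlapped. The probe was above background on both Ifnar1+/+ arrays and on 1 of the 2 Ifnar1-/- arrays. The difference was -0.71 ± 0.35 (SE, n = 2 per group), with a 95% interval on the log2 scale of -1.56 to 0.13 and an adjusted p = 0.56 by limma. The Ifnar1-/- mean, 5.02, lay below the lowest detected signal of the arrays, so no fold is given. The difference rests on Ifnar1-/- array 1: without that array it was -0.24, and without Ifnar1-/- array 2 it was -1.19.

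Trim25 encodes the ligase that also serves RIG-I. Its probe was not above background on any array, with detection p-values of 0.0501 and 0.0739 in Ifnar1+/+ and 0.168 and 0.0927 in Ifnar1-/- samples. Its normalized levels were 5.27 and 5.24 against 4.92 and 5.16, and its raw signals, 151.2 and 147.1 against 150.9 and 153.1, overlapped. It did not enter the test, and no fold is given, since both groups were below background.

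Counted over all 6 probes with no filter on dim probes, 6 had a lower mean in Ifnar1-/- samples with groups that did not overlap, as did 18.2% of all 25697 probes, and 4 had an unadjusted limma p under 0.05 in that direction, against 3.87% of all probes. Among the 5 probes that entered the test, which stand for 3 genes, the counts were 5 and 4, against 20.0% and 5.24% of the 11884 probes tested. The median difference of those 5 probes was -1.45, and that of all probes tested was 0.02. Usp18 probe 3 is in these counts and in this median, although it entered the test through the Ifnar1+/+ arrays alone. The count of 6 includes Trim25, which was not above background on any array, and the groups of Ube2l6 overlapped with median scaling. Since 3 of the 6 probes belong to Usp18, the counts describe fewer genes than probes.

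Without background correction the differences shrank by more than 1.5 times, to -0.99 for Isg15, -1.15, -0.73 and -0.41 for the Usp18 probes 1 to 3, and -0.27 for Ube2l6. The order of the first 2 also turned, Usp18 probe 1 then being the lower. The raw signals of Isg15, Ube2l6 and Usp18 probe 3 lie near the array medians on the Ifnar1-/- arrays. The authors' normalized values, which are not background subtracted, gave -0.99 for Isg15 and -1.15 for Usp18 probe 1. Every setting run kept a lower mean for each of the 5 tested probes wherever that probe had a value.

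**Figure D2:**
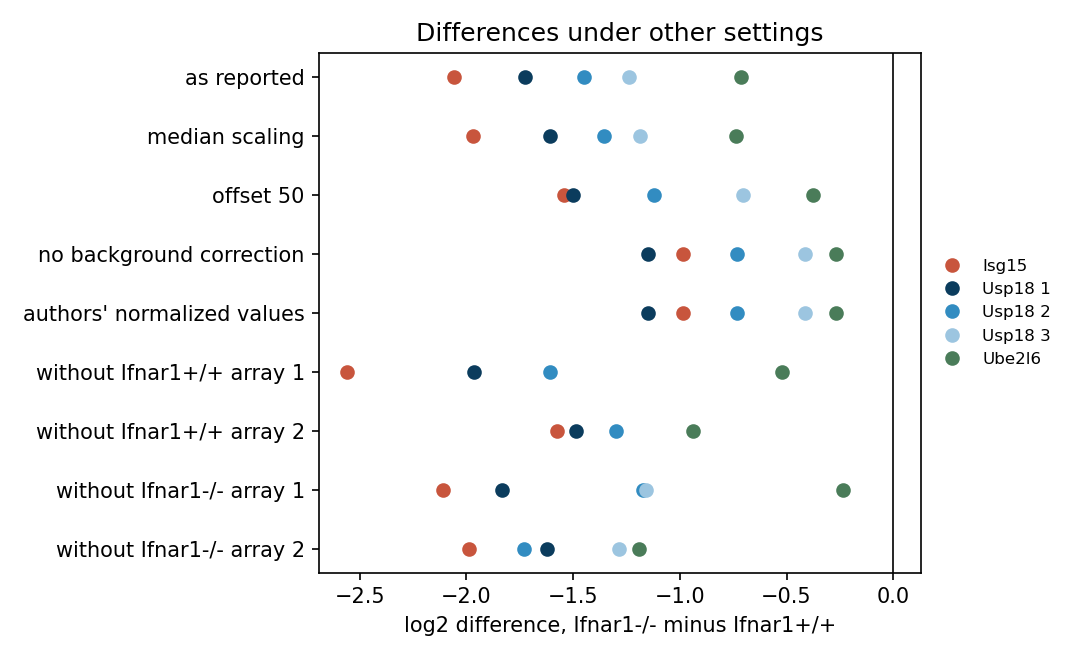
Log2 difference (horizontal axis, Ifnar1-/- minus Ifnar1+/+) of the 5 tested member probes as reported and under 8 other settings, 1 per line. All points lie below 0, Isg15 moves from -2.56 without Ifnar1+/+ array 1 to -0.99 with no background correction, and Ube2l6 from -1.19 to -0.24 with 1 or the other Ifnar1-/- array left out.

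The other enzymes of the pathway were measured where a probe was named for them. Of 10 listed enzymes, 7 entered the test, 5 with a lower and 2 with a higher mean, 0 passing in either direction by limma, and their median difference was -0.45 against 0.03 over all 8442 genes with a tested probe. Uba7, the gene of the activating enzyme of ISG15, lay at 11.01 and 11.35 in Ifnar1+/+ and at 10.01 and 10.80 in Ifnar1-/- samples, so the groups did not overlap. The difference was -0.77 ± 0.32 (SE), with an adjusted p = 0.53 by limma. Usp2, one of the ubiquitin proteases that can also act on ISG15, differed by -0.73 ± 0.25, with 9.12 and 9.51 against 8.66 and 8.51. Usp16 and Usp5, other proteases with reported activity on ISG15, differed by -0.53 ± 0.26 and -0.45 ± 0.25. Usp21 and the ubiquitin ligase gene Arih1 lay within the spread of the arrays, at -0.03 ± 0.25 and 0.06 ± 0.24. Usp14, a protease bound to the proteasome, was the highest, at 0.69 ± 0.33, and was above background on 1 of the 2 Ifnar1+/+ arrays. Usp24 did not enter the test, Usp13 was not above background on any array, and Herc5 had no probe. With no filter on dim probes, which adds Usp13 and Usp24, the median was -0.03.

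**Figure D3:**
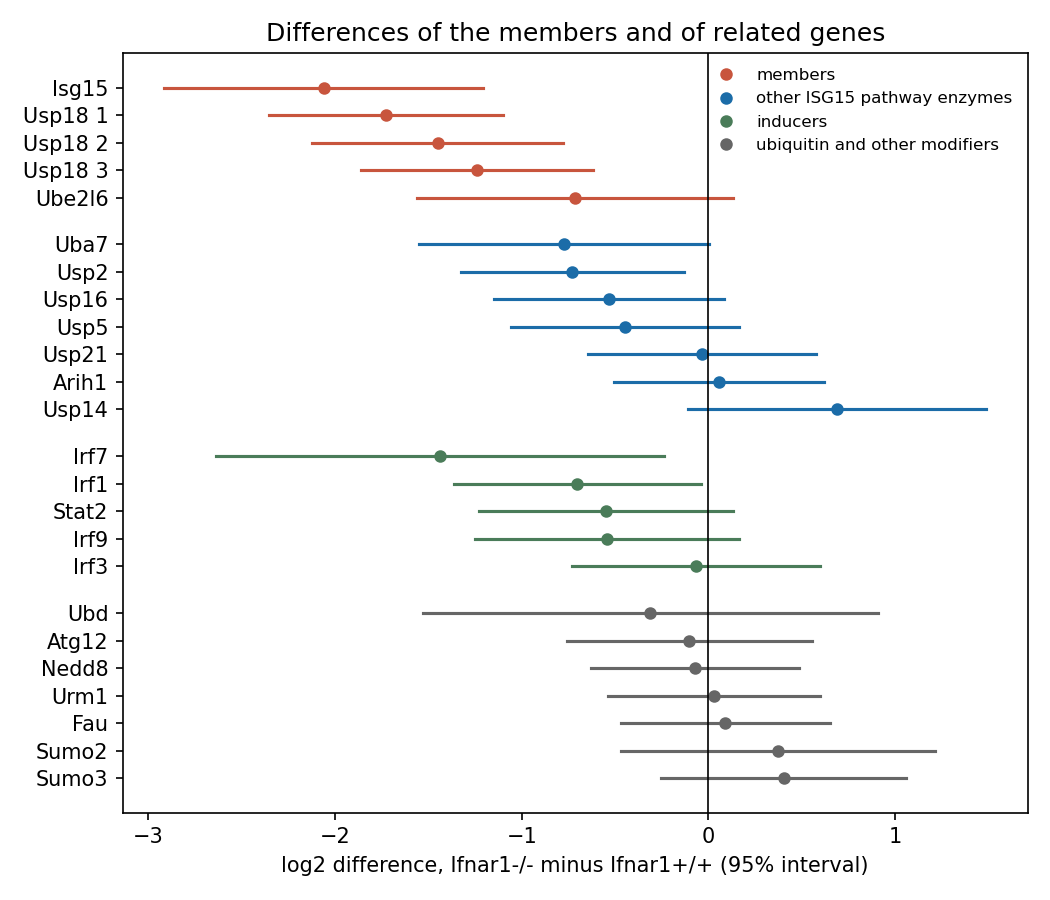
Log2 difference (horizontal axis, Ifnar1-/- minus Ifnar1+/+) with its 95% interval from limma for the 5 member probes tested and for the genes of 3 related lists, 1 per line. The intervals of Isg15 and of Usp18 probes 1 and 2 lie below 0, as do those of Usp2, Irf1 and Irf7. Usp18 probe 3 is drawn although it was above background on the Ifnar1+/+ arrays alone. The intervals of Ube2l6 and Uba7 reach 0, and those of the other modifiers span 0.

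Relatives of ISG15 served as a comparison within the class of small modifiers. Of 7 tested genes for other ubiquitin-like proteins, 3 had a lower and 4 a higher mean and 0 passed by limma, with a median difference of 0.03. Ubd, which encodes FAT10, another modifier with a pair of ubiquitin-like domains that inflammatory cytokines induce, lay at 5.79 and 6.89 in Ifnar1+/+ and at 5.41 and 6.65 in Ifnar1-/- samples. Its groups overlapped, and the difference was -0.31 ± 0.51 (SE). Nedd8 differed by -0.07 ± 0.23, Sumo2 by 0.37 ± 0.35 and Sumo3 by 0.40 ± 0.27. No direct test of Isg15 against these genes was made.

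Within the family of ubiquitin-specific proteases, Usp18 probe 1 had the lowest difference of 29 tested genes, and it stayed lowest under each setting run. The next was Usp2, at -0.73, the highest was Usp54, at 0.75, and the family median was 0.04. Ube2l6, at -0.71, lay near Ube2a, a partner of ligases in DNA damage tolerance, at -0.53 ± 0.23 (SE), among 21 tested genes for ubiquitin-conjugating enzymes with a median of -0.01. Their order turned without Ifnar1-/- array 1, when Ube2a was at -0.51 and Ube2l6 at -0.24, and on the authors' normalized values, with -0.30 and -0.27. It also turned with an offset of 50, at -0.43 and -0.38, and with no background correction, at -0.30 and -0.27. Ube2l6 ranked 5 of 20 without Ifnar1-/- array 1 and 3 of 21 on the authors' values. Of 23 tested Trim genes, which did not include Trim25, 14 had a lower and 9 a higher mean, with a median of -0.15. The lowest was Trim30d, at -1.35 ± 0.43, with levels of 8.34 and 8.66 in Ifnar1+/+ and 6.51 and 7.80 in Ifnar1-/- samples. Of the 3 tested relatives of Herc6, Herc2 and Herc4 differed by -0.28 ± 0.28 and 0.13 ± 0.28, and Herc3, not above background on either Ifnar1-/- array, was at least 1.28-fold lower. These ranks describe the arrays and were not tested against the families.

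**Figure D4:**
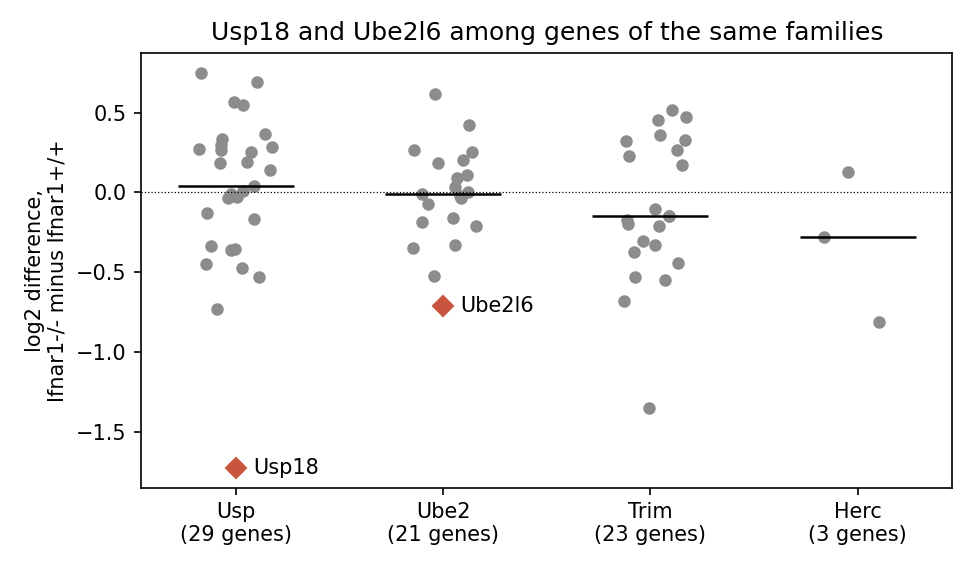
Log2 difference (vertical axis, Ifnar1-/- minus Ifnar1+/+) of each tested gene of the Usp, Ube2, Trim and Herc families, 1 point per gene, spread sideways for legibility, with the family median as a line. Usp18 at -1.73 (red) is the lowest of 29 genes, Ube2l6 at -0.71 (red) lies close to Ube2a at -0.53, and Trim25 and Herc6 have no point because they were not tested.

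Transcription factors that switch these genes on were also measured. Of 5 tested, 5 had a lower mean and 0 passed by limma, with a median difference of -0.55. With Ifnar1-/- array 1 left out that median was -0.27, and leaving out Ifnar1-/- array 2 gave -0.86. Irf7, which amplifies the interferon response, had a mean of 8.71 ± 0.41 (SD, n = 2) in Ifnar1+/+ samples and lay at 6.52 and 8.04 on Ifnar1-/- arrays 1 and 2, a difference of -1.44 ± 0.50 (SE) that was larger on Ifnar1-/- array 1. Stat2 and Irf9, both part of the complex that binds the response element, differed by -0.55 ± 0.28 and -0.54 ± 0.29, Irf1 by -0.70 ± 0.28 and Irf3 by -0.06 ± 0.28.

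Genes for proteins that bind the members, or are joined to ISG15, were measured as well. Of 8 tested partners, 6 had a lower and 2 a higher mean and 0 passed by limma, with a median of -0.12. Ddx58, which encodes RIG-I, the sensor that TRIM25 modifies, differed by -0.54 ± 0.27 (SE), and Mavs, the adaptor below it, by -0.36 ± 0.24. Rnf135, a second ligase of RIG-I, differed by -0.14 ± 0.25. Ifnar2, the receptor chain that USP18 binds, differed by -0.06 ± 0.33, and Skp2, a subunit of a ligase that marks USP18 for breakdown in human cells, by 0.31 ± 0.32. Of 14 listed genes for known targets of conjugation, mostly from work on human cells, 7 entered the test. Of these, 6 had a lower and 1 a higher mean and 0 passed by limma, with a median of -0.21. Plcg1, Mx1 and Ifit1 were not above background on any array, and with no filter on dim probes the median was -0.03. The double-stranded RNA kinase gene Eif2ak2 differed by -0.40 ± 0.24 and the phosphatase gene Ppm1b by -0.32 ± 0.23.

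The profiles most like those of the members were sought over all tested probes, by the root mean square difference of log2 values over the 4 arrays, each probe centred on its own mean. Nearest to Isg15 were both probes of Prss27, a serine protease gene, at 0.21 and 0.25, and Upp1, which encodes uridine phosphorylase, at 0.23. Nearest to Usp18 probe 1 were Dbp, a transcription factor under circadian control, at 0.11, and 2 interferon-stimulated genes at 0.19 each, Dhx58, which encodes the RIG-I relative LGP2, and Oasl2. Nearest to Ube2l6 were Mmp23, a metalloprotease gene, at 0.02, Slc39a14, a metal ion transporter gene, at 0.04 and Numb, an inhibitor of Notch signalling, at 0.05. These genes were picked for their values on the same 4 arrays and are a description. In the same promoter search, the windows of Prss27, Upp1, Dbp, Oasl2 and Mmp23 held 0 matches to the response element core. Numb had the core in 1 of 3 windows, and Dhx58 and Slc39a14 had no entry.

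Levels of markers of other cells are given beside those of the members, and 0 of these markers passed limma's adjusted test. In whole preparations, fewer cells of a type and less RNA per cell cannot be told apart. Of 20 listed T cell and intraepithelial lymphocyte markers, 9 entered the test and all 9 had a lower mean in Ifnar1-/- samples, 7 of them at an unadjusted limma p under 0.05 and 0 after adjustment. Of all 8442 genes with a tested probe, 47% had a lower mean, and 5.24% of all tested probes were lower at that unadjusted p. Their summed linear levels were 1127 to 1314 on the Ifnar1+/+ arrays and 391.4 to 634.7 on the Ifnar1-/- arrays. Cd3d, Cd3e and Cd3g were among the 9 tested, while Cd8a, Cd4, Cd2 and Ptprc were among the 10 not above background on any array. Cd3d entered the test through the Ifnar1+/+ arrays alone. The median marker, relative to the Ifnar1+/+ mean, lay at 0.00 on both Ifnar1+/+ arrays and at -1.60 and -0.85 on Ifnar1-/- arrays 1 and 2. Given as levels and not relative to that mean, Isg15 was at 7.22 and 8.23 in Ifnar1+/+ and at 5.74 and 5.59 in Ifnar1-/- samples.

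Of 14 fibroblast and smooth muscle markers, 7 were tested and 6 had a lower mean, with sums of 979.9 to 3545 in Ifnar1+/+ and 647.0 to 930.4 in Ifnar1-/- samples. Only Tagln was not above background on any array. Vim, which had a lower mean, entered the test through the Ifnar1+/+ arrays alone. Ifnar1+/+ array 1 had a median of 0.83 over these markers and array 2 one of -0.83. Among the tested members, Isg15 and the 3 Usp18 probes were higher on Ifnar1+/+ array 2 and Ube2l6 on array 1. Of 13 macrophage, dendritic cell and neutrophil markers, 3 were tested and 3 had a lower mean, with sums of 1017 to 1318 against 633.9 to 726.5, and Itgam, Itgax, Tyrobp, S100a8 and S100a9 were not above background on any array. Of 8 B and plasma cell markers, 3 were tested and 3 had a lower mean, with sums of 134.9 to 182.5 against 105.9 to 110.1, and Cd79a and Ms4a1 were not above background on any array. Cd79b and Pou2af1, among those tested, entered through the Ifnar1+/+ arrays alone, so the filter favoured a lower mean for them. Of 6 endothelial markers, 3 were tested and 0 had a lower mean, with sums of 128.8 to 147.0 against 155.6 to 156.4, and Pecam1, Cdh5 and Emcn were not above background on any array. The part of these cells in the differences of the members was not tested.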

How the data were processed

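The deposited raw intensity values, for which the submitters' processing notes name GenomeStudio 1.8, are mean bead signals with no background subtracted. The deposited detection p-values compare each probe with negative controls. The deposited normalized intensity values share 1 distribution over the arrays, are linear and not background subtracted, and no source used here says how the authors scaled them.

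With limma 3.58.1 in R 4.3.3, neqc corrected raw values for background estimated from the detection p-values, added an offset of 16, quantile normalized them and took log2; the offset pulls differences of dim probes toward 0. A probe was tested if 2 or more of the 4 arrays had a detection p under 0.05, which held for 11884. Groups were compared probe by probe with lmFit and eBayes, two-sided, with no covariate and Benjamini-Hochberg adjustment over all probes tested, and the fit was checked on simulated data. For gene lists the brightest tested probe stood for a gene. "At least N-fold" sets the bright group's mean against the higher of the dim probe's level and the lowest detected level. The platform annotation gave 1 symbol to 23978 probes, several to 0 and none to 1719. Named genes are the members, the lists, and the 3 probes with profiles nearest each member. The members and lists were chosen with earlier results of these data known. Alternatives were the authors' normalized values, median scaling, an offset of 50, leaving out the background correction or the filter, a stricter filter (detection p under 0.01 throughout), a trend, robust moderation, array weights, a replicate block, 1 value per gene, an adjusted p under 0.1, and each array left out. Figures used matplotlib 3.10.9 in Python 3.11.15. One listed gene is not reported here.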

Additional observations from a re-analysis of the deposited data

How the results depend on the processing

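No member probe passed the adjusted threshold under any of the 17 alternatives, and each of the 5 tested kept a lower mean in Ifnar1-/- samples where it had a value. With 1 array left out, when the lone array of a group is assumed to vary like the other group, differences ranged from -2.56 to -1.58 for Isg15, -1.96 to -1.49 for Usp18 probe 1, -1.73 to -1.17 for probe 2, -1.29 to -1.16 for probe 3 and -1.19 to -0.24 for Ube2l6. Limma's adjusted p for Isg15 ranged from 0.055 to 0.59 over all its alternatives. With Ifnar1+/+ array 1 or 2 left out probe 3 no longer entered the test, and a detection p under 0.01 on all arrays left only Usp18 probes 1 and 2. Over the whole table, lower calls ranged from 0 to 9 and higher calls from 0 to 3 with 1 array left out. They were 2 lower without Ifnar1+/+ array 1 (Pla2g4c and Upp1, the first named after its values were seen) and 9 lower and 3 higher without Ifnar1+/+ array 2 (higher: Adat2, B3galt6 and Gm5801, also named after their values were seen). The cause was not tested, and the other alternatives called 0. The replicate block changed no call, with 0 probes called, and its differences for the member probes were the same (-2.06 for Isg15). The labels do not say that a number pairs samples, and the deviations of the replicate 1 arrays correlated at -0.05. Of the pathway medians, that of the enzymes ranged most, from -0.66 without Ifnar1-/- array 2 to -0.03 with no filter. Signal over background limits Isg15, Ube2l6, Trim25 and Usp18 probe 3 on the Ifnar1-/- arrays.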
